A study of Mus musculus with 10 samples.

Results

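Open chromatin was followed around 10 mouse genes: the mesenchymal transcription factors Twist1, Twist2, Snai1, Snai2, Zeb1, Zeb2, Prrx1 and Prrx2, and the mesenchymal cadherins Cdh2 and Cdh11. They were chosen by name, as 10 of the 21883 protein-coding genes of the annotation, and all peaks from 50 kb before to 50 kb after each gene (mm10) were collected. Of the 208827 regions obtained by merging the peak lists of all libraries, 200 lay in these windows. ATAC-seq, in which a transposase inserts sequencing adapters into open DNA, was done on 50000 cells in each of 10 libraries, with 2 libraries at each of 5 stages. The stages follow fibroblasts on the way to pluripotency, and the series title ties the study to KLF4 and the contacts of enhancers. Mouse embryonic fibroblasts (MEF), strain C57BL/6 x 129, carried a polycistronic cassette of Oct4, Klf4, Sox2 and Myc (OKSM) in the Col1a1 locus and the activator M2rtTA in ROSA26. MEF libraries came from unsorted cells in MEF medium without doxycycline. DAY3, DAY6 and DAY9 cells of the same genotype were grown for 3, 6 or 9 days in ESC medium with 1 ug/ml doxycycline and 50 ug/ml ascorbic acid. DAY3 cells were unsorted, whereas DAY6 and DAY9 cells had been sorted for the surface marker that the labels write SSEA+. Embryonic stem cells of the line V6.5 (ESC), C57BL/6 x 129 without the cassette, were kept in ESC medium on irradiated feeder cells and were not sorted. Sorting therefore coincides with DAY6 and DAY9, and the feeder cells and the missing cassette coincide with ESC. ESC medium, doxycycline and ascorbic acid all came in between MEF and DAY3. None of these can be told apart from the stage.

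Twist, Snail and Zeb proteins are the classical drivers of the epithelial to mesenchymal transition: they bind E-box sequences, repress Cdh1 (E-cadherin) and other epithelial genes, and are active in fibroblasts. Prrx1 and Prrx2 are homeobox factors of limb and craniofacial mesenchyme, and Cdh2 (N-cadherin) and Cdh11 (OB-cadherin) are adhesion molecules of mesenchymal cells. Reprogramming of fibroblasts runs in the opposite direction, a mesenchymal to epithelial transition, and takes place early. An open promoter does not by itself mean transcription, and distal open elements are often the cell-type-specific part of a locus.

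The peak lists held 45497 to 88980 peaks and were shortest at DAY3, with 45766 and 45497 peaks against 74444 and 64295 in MEF. Depth is not given as read totals, but the commonest expected pileup, a measure of relative depth, ran from 2.33 to 8.32 and was 3.42 in MEF 1 against 8.32 in MEF 2. All values below that are called fold are the authors' fold of a peak's summit over its local background, and folds of libraries of unequal depth compare only roughly. A region without a peak was not listed by the authors at a −log10 p-value of 5 or more, which does not show that it was closed. The labels do not say whether the 2 libraries of a stage came from separate cultures, so any spread between them may be technical. At regions with a pileup of 100 to 200 the DAY3 libraries differed by 1.33 times counting noise, the DAY9 libraries by 1.42, DAY6 by 3.61, ESC by 9.47 and MEF by 11.4 times. The DAY3 pair and the DAY9 pair were therefore each averaged and counted as 1 sample in the test across genes. Libraries of different stages differed by 4.56 to 35.3 times counting noise at such regions. MEF 1 differed from the DAY3 libraries by 9.6 and 9.29 times, and MEF 2 by 8.72 and 9.04 times. By this measure the MEF libraries differed more from each other than from the DAY3 libraries, which limits the reading of any step from MEF to DAY3. As a check of the labels, all 6 fibroblast markers (Postn, Thy1, Col1a2, Col3a1, Pdgfrb, Twist2) had a peak within 1 kb of a gene end in both MEF libraries, and 6 and 5 of 6 pluripotency markers had one in ESC. In the ESC libraries 3 and 3 of the 6 fibroblast markers had a gene-end peak, with none at Postn and Col3a1, and whether feeder cells took part in any ESC value below was not tested. Of 5 epithelial markers, 2 and 0 had a gene-end peak in MEF and 5 and 5 at DAY9. Of the other cell types, 1 and 0 of 3 endothelial markers and 2 and 2 of 3 blood markers had one in MEF, while the blood marker Ptprc had none in any library.

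Upstream sequence was at hand for 6 of the 10 genes, in a RefSeq table of build GRCm38.p6, the same build as mm10. Shown are the 250 bases before the RefSeq start of 5 of them, 5′ to 3′ along the gene, to set starts listed in every library beside starts that were not. Twist1 and Snai1 had a peak at this start in 10 of 10 libraries, Prrx1 in 6, Twist2 in 5 and Prrx2 in 1. Peaks were counted over the whole RefSeq start entry that holds these bases, so a counted peak need not reach them. Zeb2, the other gene with a match, has 4 RefSeq starts and is not shown. Capitals mark CG dinucleotides.
Twist1 (chr12:33957421-33957670, plus strand): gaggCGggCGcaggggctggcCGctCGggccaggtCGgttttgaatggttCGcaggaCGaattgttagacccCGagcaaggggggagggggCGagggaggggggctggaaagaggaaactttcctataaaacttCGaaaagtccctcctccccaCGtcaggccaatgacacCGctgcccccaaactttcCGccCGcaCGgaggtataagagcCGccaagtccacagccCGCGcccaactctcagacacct
Snai1 (chr2:167537945-167538194, plus strand): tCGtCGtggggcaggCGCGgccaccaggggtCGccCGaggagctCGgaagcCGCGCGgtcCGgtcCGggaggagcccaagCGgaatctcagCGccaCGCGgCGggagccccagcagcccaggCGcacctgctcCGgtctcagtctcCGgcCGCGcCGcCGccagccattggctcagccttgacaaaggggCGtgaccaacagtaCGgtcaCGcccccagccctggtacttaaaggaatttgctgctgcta
Twist2 (chr1:91801211-91801460, plus strand): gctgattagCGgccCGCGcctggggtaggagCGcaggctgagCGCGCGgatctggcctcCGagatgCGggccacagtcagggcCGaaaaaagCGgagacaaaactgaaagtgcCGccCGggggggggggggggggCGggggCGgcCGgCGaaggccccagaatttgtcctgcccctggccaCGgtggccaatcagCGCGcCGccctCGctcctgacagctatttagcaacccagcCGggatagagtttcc
Prrx1 (chr1:163313651-163313900, minus strand): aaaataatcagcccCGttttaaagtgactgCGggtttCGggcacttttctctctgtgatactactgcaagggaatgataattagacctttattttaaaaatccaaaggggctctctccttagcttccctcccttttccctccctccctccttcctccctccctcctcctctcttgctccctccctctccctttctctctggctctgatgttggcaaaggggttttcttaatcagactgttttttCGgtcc
Prrx2 (chr2:30845117-30845366, plus strand): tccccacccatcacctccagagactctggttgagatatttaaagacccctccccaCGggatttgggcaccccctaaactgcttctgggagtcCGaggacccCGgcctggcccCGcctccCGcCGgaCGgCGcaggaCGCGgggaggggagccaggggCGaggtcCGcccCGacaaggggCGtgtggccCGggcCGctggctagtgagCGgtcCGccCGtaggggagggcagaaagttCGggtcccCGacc
CG dinucleotides numbered 27 upstream of Snai1, 23 of Twist2, 21 of Prrx2, 18 of Twist1 and 4 of Prrx1. The median over all 32851 windows of this length was 6 and the upper quartile 16. The CG-rich stretches thus included the permanently listed Snai1 and Twist1 as well as Twist2 and Prrx2, whose peaks were not listed at all stages. The E-box CACCTG, searched on both strands (the other strand reads CAGGTG), occurred 1 time upstream of Snai1, 126 bases before its start, and 17.2% of all windows held it. The Twist-type E-box CATCTG (the other strand reads CAGATG) was in none of the 6 genes' windows and in 14.4% of all. The TATA sequence TATAAA, searched on both strands, occurred 1 time upstream of Twist1, 126 bases before its start, and in 12.4% of all windows. These matches describe the letters only.

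The 200 regions were parted into 14 at the ends of the 10 genes themselves (within 1 kb of either end), 8 at ends of neighbouring protein-coding genes and 178 distal elements. Of the 14 own gene-end regions, 6 had a peak in all 10 libraries. A gene-end peak in both libraries was listed for 8 of the 10 genes in MEF and 9 at DAY3. At DAY6, DAY9 and in ESC the count was 8 each. These were not the same genes throughout, and Prrx1 counted at DAY9 and in ESC through another region than in MEF. No share over all genes stands beside these gene counts. Of 9 own gene-end regions listed in both MEF libraries, 6 had a peak in both ESC libraries. With the neighbours' ends the count was 11 of 16, and over all gene-end MEF regions of the genome the share was 89.2%. The map of gene-end folds shows every library.

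**Figure D1:**
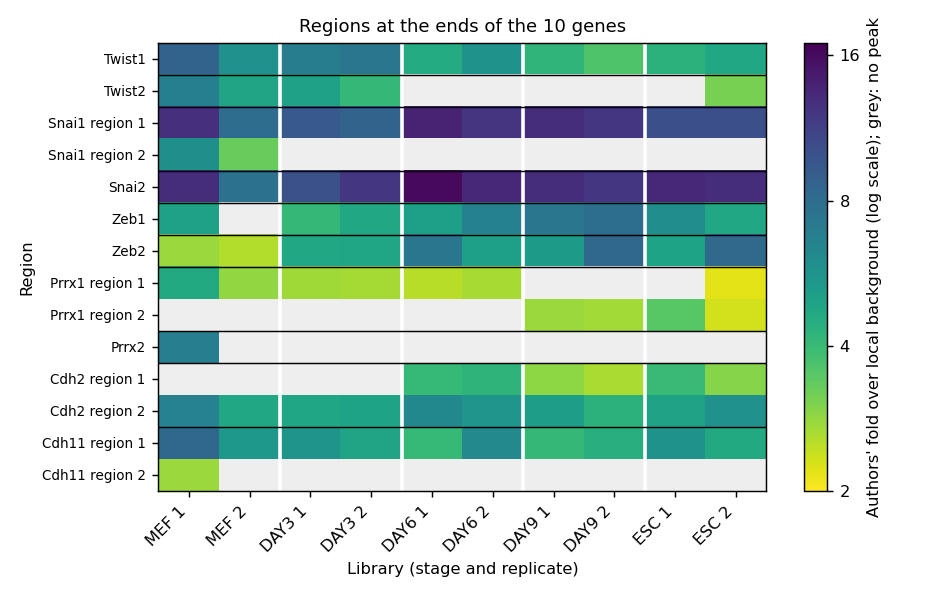
Authors' fold over local background (colour, log scale) at the 14 regions within 1 kb of an end of the 10 genes, in the 10 libraries (columns), with grey where no peak was listed. Twist1, Snai1 region 1, Snai2, Zeb2, Cdh2 region 2 and Cdh11 region 1 have a peak in all 10 libraries. Twist2, Snai1 region 2, Prrx1 region 1, Prrx2 and Cdh11 region 2 have a peak in MEF that is missing at some later stage, the last 2 in MEF 1 alone. Prrx1 region 2 and Cdh2 region 1 are listed only after DAY3, and Zeb1 lacks a peak in MEF 2 alone.

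The 2 Twist genes, which encode basic helix-loop-helix factors of the mesoderm, differed at their starts. At Twist1 (gene at chr12:33957671-33959831) the region chr12:33956682-33959062 had folds of 8.61 and 5.74 in MEF, 6.88 and 7.35 at DAY3, 4.55 and 5.65 at DAY6, 4.20 and 3.62 at DAY9, and 4.30 and 4.71 in ESC. It was thus listed in all 10 libraries, with the highest fold in MEF 1. At Twist2 (gene at chr1:91801461-91848034) the region chr1:91800905-91802095 had folds of 6.76 and 4.86 in MEF and 4.99 and 4.10 at DAY3, no peak in any DAY6 or DAY9 library, no peak in ESC 1 and 3.10 in ESC 2. It was the single own gene-end region with peaks in both MEF and both DAY3 libraries that was listed in neither DAY6 nor DAY9 library.

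Snai1 and Snai2 encode the zinc finger repressors Snail and Slug, and their starts carried the highest gene-end folds of the 10 genes. At Snai1 (gene at chr2:167538195-167542814) the region chr2:167537561-167538432 had folds of 12.7 and 7.89 in MEF, 9.38 and 8.63 at DAY3, 13.8 and 12.3 at DAY6, 12.8 and 12.1 at DAY9, and 10.1 and 10.1 in ESC. At Snai2 (gene at chr16:14705852-14709395) the region chr16:14705192-14706266 had folds of 12.9 and 7.62 in MEF, 10.0 and 12.1 at DAY3, 16.1 and 13.3 at DAY6, 12.8 and 12.1 at DAY9, and 13.3 and 12.8 in ESC. Both were listed in all 10 libraries, MEF 1 lay within the range of the later libraries, and the lowest value of each was that of MEF 2. A second Snai1 region, chr2:167543210-167544231, 0.396 kb beyond the 3′ end, had folds of 5.86 and 3.28 in MEF and no peak afterwards.

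Zeb1 and Zeb2 encode zinc finger and homeodomain repressors that repress epithelial genes, as Snail does. At the lower-coordinate end of Zeb1 (gene at chr18:5591327-5775468) the region chr18:5591036-5593507 had a fold of 5.00 in MEF 1, no peak in MEF 2, 4.10 and 4.77 at DAY3, 5.07 and 6.64 at DAY6, 7.35 and 7.86 at DAY9, and 5.93 and 4.71 in ESC. At the start of Zeb2 (gene at chr2:44983512-45117442, minus strand) the region chr2:45116441-45117683 had folds of 2.77 and 2.57 in MEF, 4.76 and 4.81 at DAY3, 7.32 and 5.07 at DAY6, 5.28 and 8.24 at DAY9, and 4.91 and 8.13 in ESC. The 2 MEF values of Zeb2 were below those of all 8 later libraries, and the Zeb1 region was missing from 1 MEF list alone. Both Zeb genes were therefore listed at an end at every stage after MEF, in both libraries.

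No gene-end region of the Prrx genes, markers of limb and skin mesenchyme, was listed at every stage. At Prrx1 (gene at chr1:163245119-163315145, minus strand) the region chr1:163313196-163314757 had folds of 4.62 and 2.84 in MEF, 2.71 and 2.66 at DAY3, 2.51 and 2.64 at DAY6, no peak at DAY9 or in ESC 1, and 2.18 in ESC 2. The ESC 2 peak did not reach the 250 bases shown above. The RefSeq start that follows those bases, 163313650, lies inside the gene, whose annotated 5′ end is at 163315145. Another region 0.848 kb beyond the annotated 5′ end, chr1:163315993-163316323, had no peak through DAY6, folds of 2.77 and 2.69 at DAY9, and 3.48 and 2.31 in ESC. Apart from the ESC 2 peak, the 2 neighbouring regions thus exchanged places between DAY6 and DAY9. This second region is the own gene-end region farthest outside its gene, and the nearest region beyond the limit of 1 kb, chr1:163243624-163244078, 1.04 kb below Prrx1, had a peak in MEF 1 alone (fold 3.40) and counted as distal. At Prrx2 (gene at chr2:30845064-30881251) the region chr2:30845225-30845958 had a fold of 6.82 in MEF 1 and no peak in any of the other 9 libraries, MEF 2 included.

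The cadherin genes kept an end peak throughout. At the higher-coordinate end of Cdh2 (gene at chr18:16588877-16809246) the region chr18:16807596-16809914 had folds of 6.58 and 4.71 in MEF, 4.80 and 4.91 at DAY3, 6.28 and 5.50 at DAY6, 5.17 and 4.28 at DAY9, and 4.95 and 5.75 in ESC. The opposite end, chr18:16588364-16588887, had no peak in MEF or at DAY3, and folds of 4.04 and 4.21 at DAY6, 2.88 and 2.63 at DAY9, and 4.02 and 2.94 in ESC. One end of the N-cadherin gene was thus listed at every stage, and the other end from DAY6 on. At the higher-coordinate end of Cdh11 (gene at chr8:102632095-102785493) the region chr8:102783769-102785655 had folds of 8.28 and 5.42 in MEF, 5.63 and 4.88 at DAY3, 4.05 and 6.23 at DAY6, 4.08 and 4.44 at DAY9, and 5.66 and 4.64 in ESC. It was listed in all 10 libraries although the distal MEF elements of Cdh11 were not. A further Cdh11 region, chr8:102785691-102786172, had a peak in MEF 1 alone, with a fold of 2.77.

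Distal elements behaved differently: 32 of 49 distal MEF elements were listed at no stage after MEF. A distal MEF element is a distal region listed in both MEF libraries, and 45 further distal regions had a peak in 1 MEF library only. Of the 49, 4 were last seen at DAY3 and gone from DAY6, 1 was gone from DAY9, 1 was gone from ESC, 6 were interrupted (missing at a stage and listed again later) and 5 persisted through all stages. At DAY3, 36 of the 49 (73.5%) had no peak in either library, and the background share over the 34283 distal MEF elements of the genome was 60.6%. The share gone from DAY3 on, and not listed later, was 65.3% for the 10 genes against a background of 49.2%, and 45.4% over the 27087 elements within 50 kb of any protein-coding gene. In ESC 40 of 49 (81.6%) had no peak in either library, against 65.4% in the genome and 62.1% near protein-coding genes. With 2 libraries a stage and 10 named genes these shares carry no test, and they are a description. Without MEF 2, whose list is the shorter of the MEF pair, 79 distal elements would count as MEF elements.

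The DAY3 lists were the shortest, so the same count was made with every list reduced to its 45497 strongest peaks. Then 20 of 31 elements of the 10 genes (64.5%) were gone from DAY3 on, against 48.7% of 21759 in the genome. In ESC 26 of the 31 had no peak, and the genome's share was 72.5%. By strength, 16 of 24 elements whose lower MEF −log10 p-value was 5 to under 10 were gone from DAY3 on, 8 of 12 with 10 to under 20, and 8 of 13 with 20 or more. In the genome these shares fell with strength, at 55.6%, 50.4% and 36% in the same order. The 24 weak elements lie near the threshold of the lists, where a missing peak can be a matter of depth, which was not tested. Of the 49 elements, 25 were inside their gene and 24 outside. Those inside were gone from DAY3 on in 19 cases, those outside in 13. MEF folds of the 49 ran from 2.99 to 14.0 in MEF 1 (median 5.60) and from 2.50 to 10.3 in MEF 2 (median 3.78), and 42 of the 49 were higher in MEF 1, the library with the lower background pileup.

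**Figure D2:**
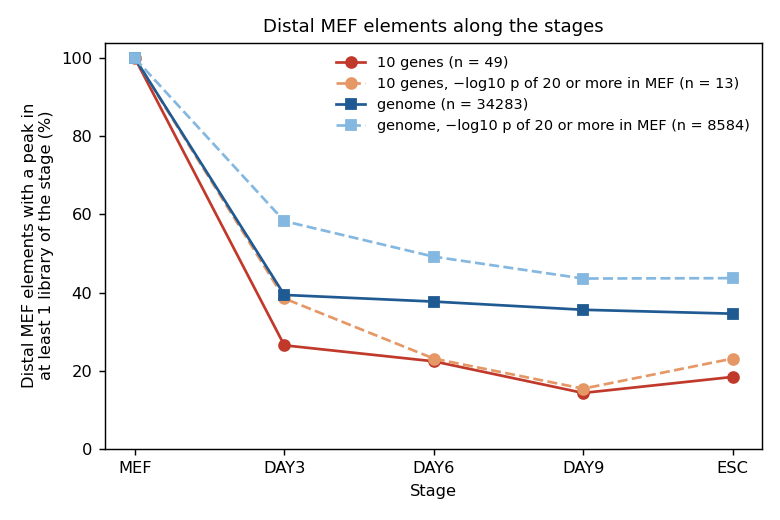
Share of distal MEF elements with a peak in at least 1 library of each stage (y axis, %), for the 10 genes and for the whole genome, for all elements (solid) and for those with a lower MEF −log10 p-value of 20 or more (dashed). The steepest step for the 10 genes is from MEF to DAY3, where 13 of 49 remain listed, followed by 11 at DAY6, 7 at DAY9 and 9 in ESC; the genome's share is 39.4% at DAY3 and 34.6% in ESC.

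**Figure D3:**
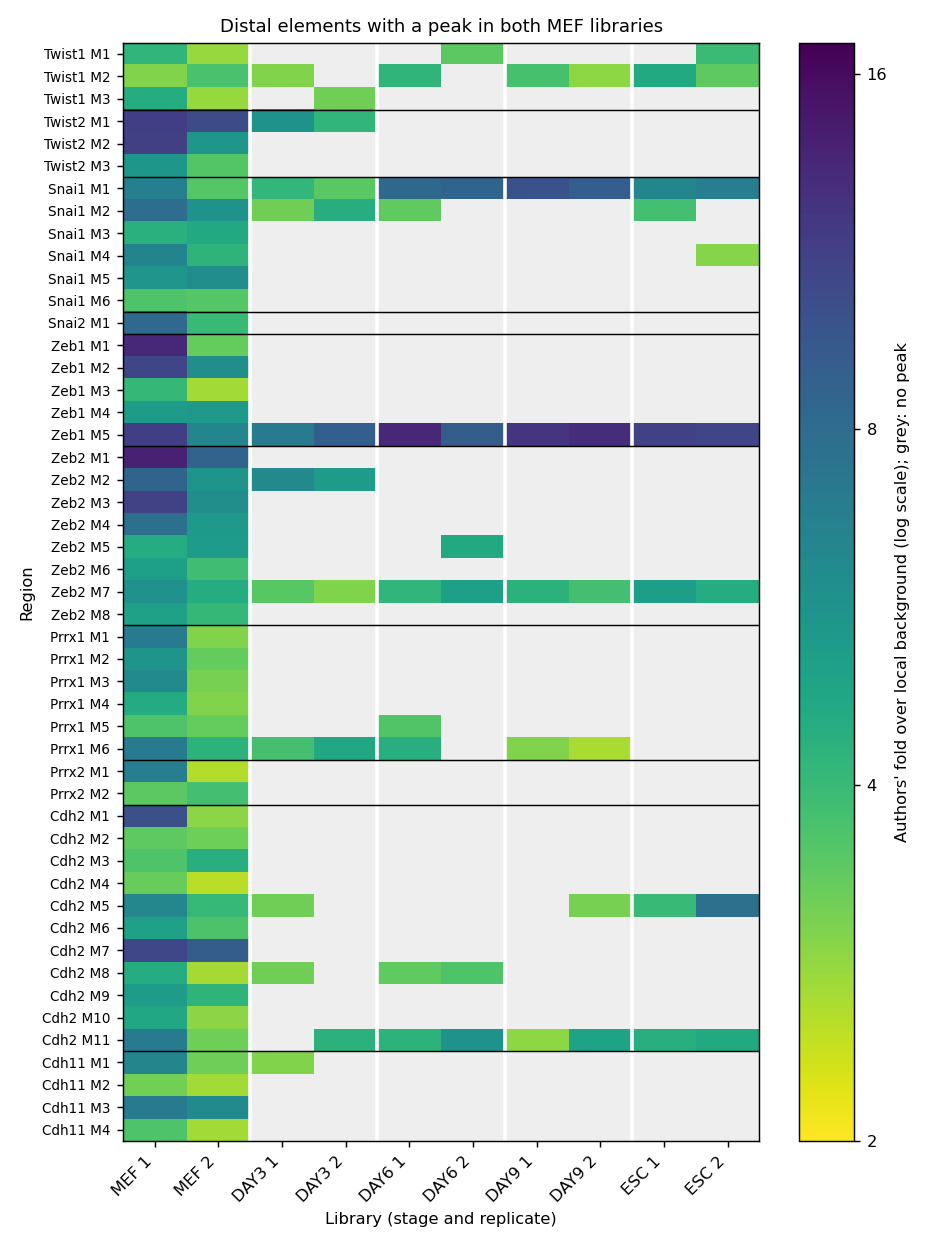
Authors' fold (colour, log scale) at the 49 distal MEF elements in the 10 libraries, with grey where no peak was listed; M numbers run along the chromosome within each gene. Most rows are coloured in MEF and grey afterwards, and 5 rows (Twist1 M2, Snai1 M1, Zeb1 M5, Zeb2 M7, Cdh2 M11) stay coloured at every stage.

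Among the Twist genes, the 3 elements of Twist2 were all gone by DAY6 while 1 of the 3 elements of Twist1 persisted. The strongest Twist2 element, chr1:91816204-91817196, lay inside the gene, 14.7 kb from its 5′ end, with a lower MEF −log10 p-value of 57.1. Its folds were 11.4 and 10.3 in MEF and 5.71 and 4.15 at DAY3, and no later library had a peak. Both MEF values were above both DAY3 values. The Twist2 start was likewise without a peak at DAY6 and DAY9, but unlike this element it was listed again in ESC 2. A second internal element, chr1:91823392-91823934, had folds of 11.3 and 5.47 in MEF and was gone from DAY3. At Twist1 all 3 elements were weak, with lower MEF −log10 p-values of 5.06 to 6.44. The strongest, chr12:33966475-33967188, 6.64 kb above the gene, had folds of 4.14 and 2.78 in MEF, no peak at DAY3 or DAY9, and single peaks of 3.43 in DAY6 2 and 3.95 in ESC 2. The adjacent chr12:33967407-33968703 persisted, with folds of 2.99 and 3.70 in MEF, 3.01 in DAY3 1, 4.20 in DAY6 1, 3.72 and 2.87 at DAY9, and 4.64 and 3.40 in ESC. These neighbours, parted by a short gap, were both near the list threshold. The third, chr12:33981365-33981746, had folds of 4.53 and 2.79 in MEF and a fold of 3.19 in DAY3 2, and was gone from DAY6.

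Of 6 distal MEF elements near Snai1, 3 were gone from DAY3, 2 were interrupted and 1 persisted. The strongest, chr2:167552756-167553619, 9.94 kb above the gene, had a lower MEF −log10 p-value of 26.3. Its folds were 7.89 and 5.66 in MEF, 3.17 and 4.47 at DAY3, 3.37 in DAY6 1 and 3.79 in ESC 1, with no peak in the other 4 libraries. It overlapped the RefSeq start of the predicted gene Gm11476, which is not among the protein-coding genes used for gene ends. The persisting element, chr2:167502713-167504401, overlapped a RefSeq start of Rnf114, a ubiquitin ligase gene next to Snai1. Its folds were 6.76 and 3.51 in MEF, 4.13 and 3.46 at DAY3, 8.29 and 8.56 at DAY6, 9.88 and 8.95 at DAY9, and 6.38 and 6.83 in ESC. No distal MEF element without an annotated start thus persisted within 50 kb of Snai1. The one element of Snai2, chr16:14736093-14736801, 26.7 kb above the gene, had folds of 8.15 and 3.97 in MEF and was gone from DAY3, although the start of Snai2 stayed listed in all libraries.

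Near Zeb1, 4 of 5 distal MEF elements were gone from DAY3, and the strongest one persisted. This was chr18:5818956-5820628, 43.5 kb above the gene and nearest to it among protein-coding genes, with a lower −log10 p-value of 39.0 in MEF and 69.6 in ESC. Its folds were 11.4 and 6.42 in MEF, 7.02 and 8.99 at DAY3, 13.3 and 9.05 at DAY6, 12.3 and 12.8 at DAY9, and 11.1 and 10.9 in ESC. The values of all later stages overlapped the MEF pair or lay just above it. The strongest of the elements lost at DAY3, chr18:5740050-5740846 inside the gene, had MEF folds of 10.9 and 5.90.

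Near Zeb2, 5 of 8 distal MEF elements were gone from DAY3, 1 from DAY6, 1 was interrupted and 1 persisted. Elements M1 to M4, below the 3′ end of the gene, held the 4 highest MEF −log10 p-values of the locus (24.1 to 48.8). The strongest, chr2:44956134-44956768, 26.7 kb below the gene, had folds of 14.0 and 8.58 in MEF and no later peak. Next to it chr2:44961106-44961663 had folds of 8.50 and 5.61 in MEF and 6.19 and 5.26 at DAY3, and was gone from DAY6. The other 2, chr2:44969149-44969791 and chr2:44976353-44977839, had MEF folds of 11.1 and 5.90, and 7.73 and 5.34, and were gone from DAY3. Thus 3 of these 4 were last seen in MEF and 1 at DAY3. The persisting element, chr2:45109159-45110644, overlapped a further RefSeq start of Zeb2 at position 45110277. Its folds were 5.78 and 4.52 in MEF, 3.48 and 2.99 at DAY3, 4.16 and 5.05 at DAY6, 4.28 and 3.75 at DAY9, and 5.16 and 4.52 in ESC. By that annotation it is also a gene start, and with it at least 3 of the 49 elements lie over a RefSeq start. No RefSeq starts were at hand for Snai2, Zeb1, Cdh2 and Cdh11, so elements over starts of these genes could not be counted.

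Near Prrx1, 4 of 6 distal MEF elements were gone from DAY3, 1 was interrupted and 1 was gone only from ESC. The last is the strongest, chr1:163361168-163362852, 46.0 kb above the gene and 22.1 kb from Gorab, which encodes a Golgi protein and is the nearest protein-coding gene. Its folds were 7.02 and 4.27 in MEF, 3.77 and 4.75 at DAY3, 4.45 in DAY6 1, and 3.00 and 2.63 at DAY9, with no peak in ESC. Of the 49 elements it lay farthest outside its gene, and it was the single one last seen at DAY9. The Prrx2 window held 7 of the 8 neighbour gene ends and only 2 distal MEF elements, both gone from DAY3. The stronger, chr2:30899398-30899912, lay inside the neighbour Ptges, a prostaglandin synthase gene, and had folds of 3.43 and 3.78 in MEF. The other, chr2:30870745-30871438 inside Prrx2, had folds of 6.79 and 2.57.

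Cdh2 held the largest number of distal MEF elements of the 10 genes, 11, of which 8 were gone from DAY3. The strongest, chr18:16740655-16741277 inside the gene, had the highest lower MEF −log10 p-value of all 49 elements, 81.4. Its folds were 10.8 and 9.03 in MEF, and no later library had a peak. The next element, chr18:16744705-16745476, had folds of 4.50 and 2.67 in MEF, 3.17 in DAY3 1, and 3.37 and 3.61 at DAY6, and was gone from DAY9. The persisting chr18:16821961-16822522, 12.7 kb above the gene, had folds of 7.02 and 3.22 in MEF, 4.31 in DAY3 2, 4.27 and 5.71 at DAY6, 2.88 and 4.90 at DAY9, and 4.46 and 4.65 in ESC. These 3 show that elements of 1 locus ended at different stages while the higher-coordinate gene end stayed listed. An interrupted element, chr18:16713099-16714185, had folds of 6.30 and 4.05 in MEF, 3.17 in DAY3 1, no peak at DAY6, 3.11 in DAY9 2, and 4.02 and 7.74 in ESC.

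At Cdh11, 3 of 4 distal MEF elements were gone from DAY3 and 1 from DAY6. The strongest, chr8:102740855-102741605 inside the gene, had folds of 6.95 and 6.16 in MEF and no later peak. The last to go, chr8:102627187-102627654, 4.44 kb below the gene, had folds of 6.41 and 3.22 in MEF and a fold of 3.01 in DAY3 1. No distal element of Cdh11, Twist2 or Prrx2 had a peak in both ESC libraries, whether present in MEF or not.

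Distal elements were also opened in these loci. Of 31 distal elements with a peak in both ESC libraries, 22 (71.0%) had none in either MEF library, and the background share over 45004 distal ESC elements of the genome was 69.2%, so the 10 genes were close to it. Of the 22, 7 lay near Zeb2, 5 near Cdh2, 4 near Snai2, 3 near Prrx1, 2 near Snai1 and 1 near Zeb1. By first appearance in any library, 4 were seen from DAY3, 8 from DAY6, 2 from DAY9 and 8 in ESC alone. ESC alone made up 36.4% here, 50.8% of the 31134 such elements of the genome, and 46.3% of the 22076 within 50 kb of a protein-coding gene. Their folds ran from 3.32 to 12.5 in ESC 1 (median 5.35) and from 2.99 to 9.25 in ESC 2 (median 4.64). The count rests on both ESC libraries, as without ESC 1 it was 35 and without ESC 2 it was 39.

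The strongest new element by the lower ESC −log10 p-value was at Zeb1, chr18:5751042-5752584 inside the gene, with 33.9. It had folds of 7.54 and 6.67 in ESC and no peak elsewhere. At Zeb2 chr2:45158140-45160122, 40.7 kb above the gene, had folds of 3.65 in DAY3 1, 8.65 and 6.80 at DAY6, 5.52 and 5.14 at DAY9, and 9.37 and 9.25 in ESC. At Cdh2 chr18:16614552-16615214 inside the gene had folds of 12.5 and 4.96 in ESC alone. The first and the last were thus found in ESC only, whereas the Zeb2 element was in both libraries from DAY6 on.

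At Snai2 chr16:14677803-14678610, 27.2 kb below the gene, had folds of 3.59 and 6.61 at DAY6, 6.84 and 3.46 at DAY9, and 9.01 and 4.64 in ESC. At Prrx1 chr1:163311666-163312809, inside the gene and 2.34 kb from its annotated 5′ end, had a fold of 3.16 in DAY6 2, 3.11 and 2.35 at DAY9, and 4.65 and 3.85 in ESC. This Prrx1 region lay within 1 kb of the RefSeq start at 163313650. It counted as distal because gene ends were taken from the gene coordinates. At Snai1 chr2:167578424-167578977, 35.6 kb above the gene, had folds of 4.56 and 3.22 at DAY9 and 6.91 and 3.87 in ESC. All 3 appeared first in the sorted cells. Snai2, the gene with 1 distal MEF element, thus had 4 distal ESC elements, none of them listed in MEF.

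A further 18 distal elements were transient, with a peak in both libraries of at least 1 of DAY3, DAY6 and DAY9 and none in any MEF or ESC library. They lay near Cdh2 (5), Snai1 (4), Cdh11 (3), Prrx1 (2), Prrx2 (2), Zeb1 (1) and Zeb2 (1). They made up 10.1% of the 178 distal regions, and in the genome 19164 of 187791 distal regions (10.2%) were transient, so the 10 genes were close to the background. The following 3 were picked after their values were seen. At Zeb1 chr18:5694094-5694801 had folds of 9.36 and 10.1 at DAY3, 5.61 and 3.91 at DAY6, and 4.92 and 5.02 at DAY9. At Prrx1 chr1:163327290-163328062, 12.1 kb above the gene, had folds of 8.09 and 8.29 at DAY3, 11.6 and 11.6 at DAY6, and 3.60 and 3.58 at DAY9. At Snai1 chr2:167561761-167562749, 18.9 kb above the gene, had folds of 4.12 and 3.51 at DAY3, 10.0 and 6.91 at DAY6, and 9.46 and 9.73 at DAY9. The Zeb1 element was highest at DAY3, the Prrx1 element at DAY6, and the Snai1 element at DAY6 and DAY9, all under doxycycline.

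**Figure D4:**
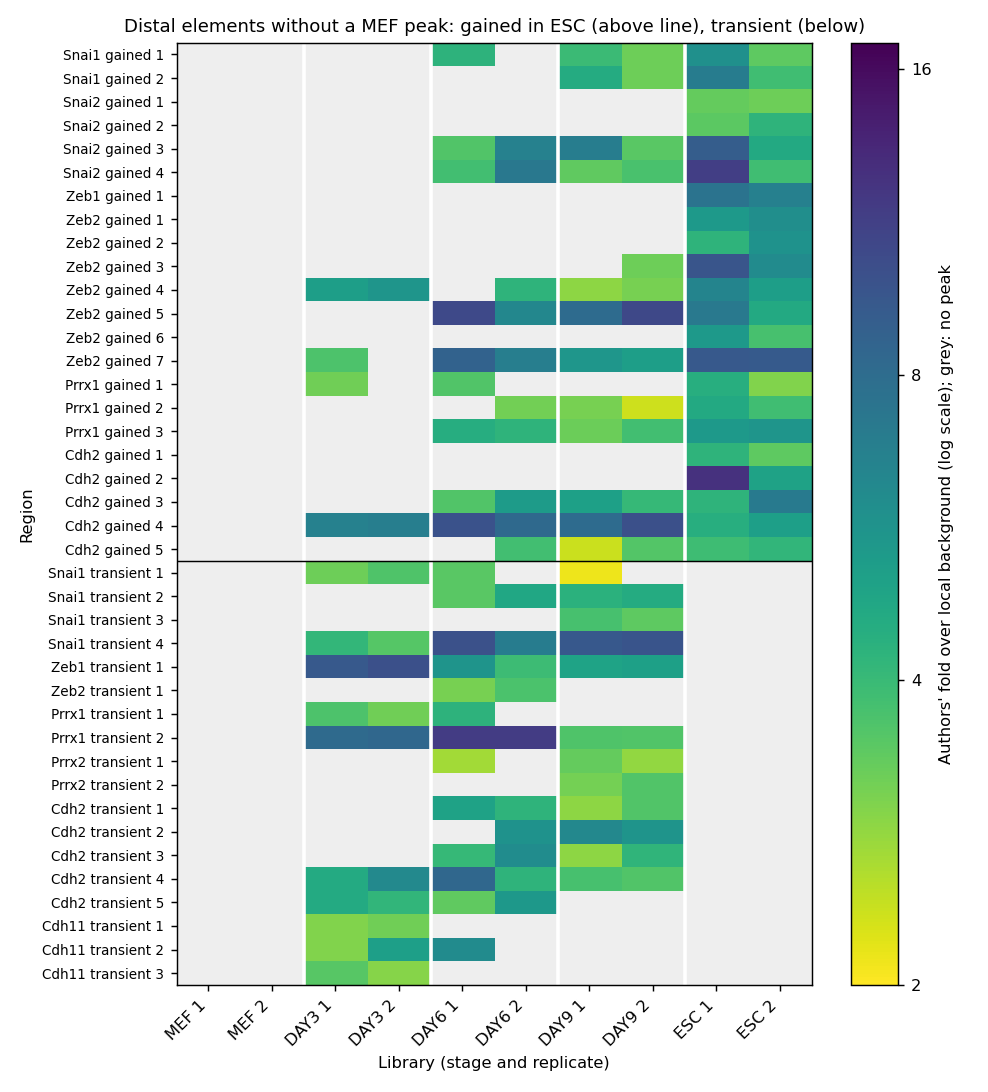
Authors' fold (colour, log scale) at the distal elements without a MEF peak: 22 with a peak in both ESC libraries (above the line) and 18 transient ones (below), in the 10 libraries, with grey where no peak was listed. In the upper block 8 rows are coloured in ESC alone, and in the lower block the colour is limited to DAY3, DAY6 and DAY9 by definition.

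Counting all peaks of a window, the 10 genes together held 103 and 86 peaks in MEF, 55 and 53 at DAY3, 67 and 64 at DAY6, 64 and 64 at DAY9, and 70 and 66 in ESC. Per 10000 peaks of each list these were 13.8 and 13.4 in MEF, 12.0 and 11.6 at DAY3, 10.3 and 10.9 at DAY6, 8.23 and 8.17 at DAY9, and 8.08 and 7.42 in ESC. The MEF values were thus the highest on both scales, and the order of the later stages changed with the scaling, as DAY3 was lowest by plain count and ESC by share. Windows of neighbouring genes share peaks, and a window also holds the neighbours' own elements.

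**Figure D5:**
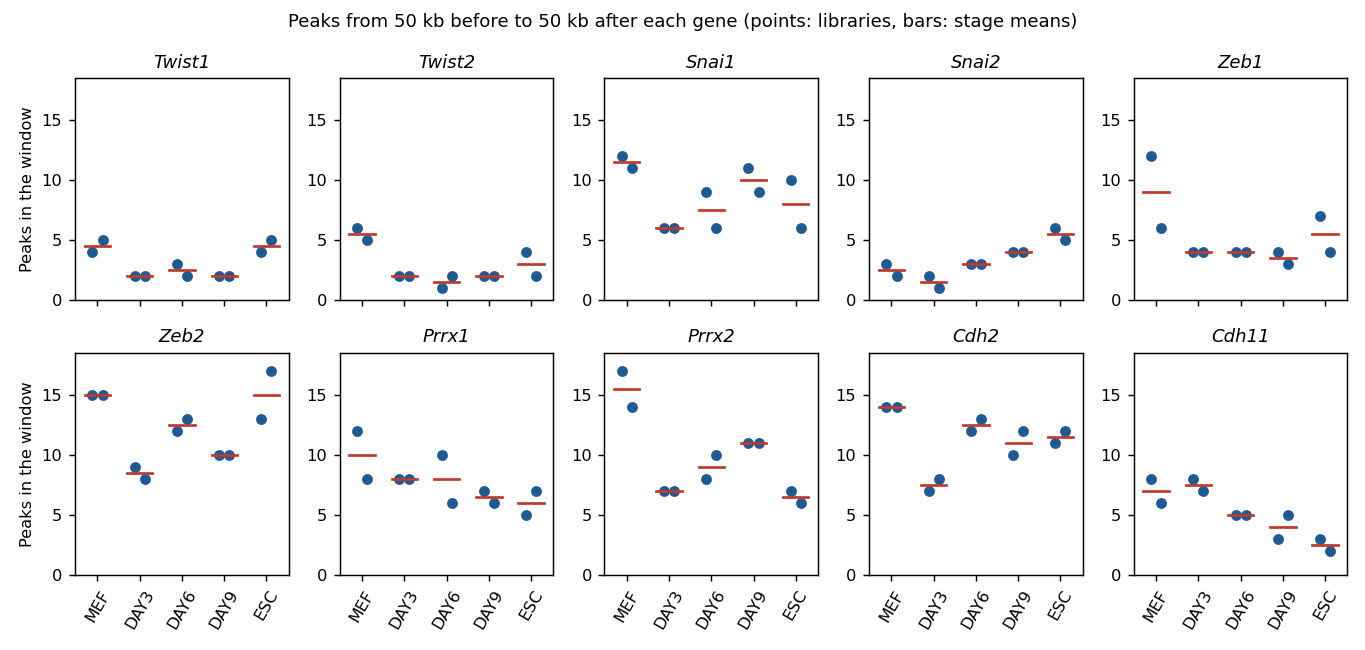
Peaks from 50 kb before to 50 kb after each of the 10 genes (y axis, number of peaks in the list), with 1 point per library and a bar at the mean of each stage. Cdh11 goes from 8 and 6 peaks in MEF to 3 and 2 in ESC, Prrx2 from 17 and 14 to 7 and 6, while Snai2 goes from 3 and 2 to 6 and 5.

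The window counts of ESC and MEF were compared across 21347 genes with limma, on log2 of the count scaled to the mean list length plus 1, with Benjamini-Hochberg adjustment over all genes. Of the 10 genes, 2 were lower in ESC at an adjusted p under 0.05 and 0 were higher, where 5.63% of all genes were lower and 8.87% higher. Prrx2 had 17 and 14 peaks in MEF (15.5 ± 2.12, SD, n = 2) and 7 and 6 in ESC (6.50 ± 0.707, SD, n = 2), a log2 difference of -1.43 (SE 0.190, limma adjusted p = 0.0147). Cdh11 had 8 and 6 in MEF (7.0 ± 1.41, SD, n = 2) and 3 and 2 in ESC (2.50 ± 0.707, SD, n = 2), a log2 difference of -1.43 (SE 0.230, limma adjusted p = 0.0201). For both genes the ESC counts were below both MEF counts. Both calls ended when single libraries were left out, Prrx2 without MEF 1, MEF 2, ESC 1 or ESC 2 (limma adjusted p = 0.0669, 0.0733, 0.0558 and 0.0842) and Cdh11 without MEF 1, MEF 2, DAY6 1, DAY6 2 or ESC 2 (limma adjusted p = 0.0837, 0.0817, 0.0569, 0.0580 and 0.0755). The Prrx2 value also includes the neighbours' ends, 7 of 24 regions in that window.

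The other 8 genes did not pass the test. Their log2 differences between ESC and MEF were -0.98 for Twist2, -0.93 for Prrx1, -0.87 for Zeb1, -0.81 for Snai1, -0.58 for Cdh2, -0.33 for Zeb2, -0.28 for Twist1 and 0.62 for Snai2, with limma adjusted p from 0.0601 to 0.518. Snai2 had 3 and 2 peaks in MEF and 6 and 5 in ESC, the single positive difference. Twist1 had 4 and 5 peaks in both, Zeb1 12 and 6 in MEF against 7 and 4 in ESC, and Zeb2 15 and 15 against 13 and 17. The counts of Twist1, Zeb1 and Zeb2 thus overlapped between the stages. The median difference of the 10 genes was -0.84 and that of all genes 0.01. Of all genes, 1894 were higher and 1202 lower. With counts not scaled to list length the split was 2694 higher and 498 lower, the median of all genes shifted to 0.29, and the same number of the 10 genes, 2, was lower.

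For DAY3 and DAY9 against MEF, limma called 0 of 21347 genes (0% higher and 0% lower), the 10 genes included, with 4141 and 4225 genes at an unadjusted p under 0.05. The median log2 difference of the 10 genes was -0.29 at DAY3 and -0.69 at DAY9, against 0.10 and 0.09 for all genes. At DAY9 the differences ran from -1.22 (Twist2 and Zeb1) to 0.39 (Snai2), and at DAY3 from -0.68 (Twist2) to 0.64 (Cdh11). Cdh11 had 8 and 6 peaks in MEF and 8 and 7 at DAY3, so its scaled count was higher at DAY3 although 3 of its 4 distal MEF elements were no longer listed. With the 10 libraries as separate samples, 6 of the 10 genes (Twist1, Twist2, Zeb1, Zeb2, Prrx2, Cdh11) were lower at DAY9, limma adjusted p from 0.0207 to 0.0497. Of all genes, 3568 were called there, 1247 lower (5.84%) and 2321 higher. That setting counts the DAY9 libraries, which differed by 1.42 times counting noise, as 2 separate samples. The 3 comparisons share the MEF libraries, so their values are not independent of each other.

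Related gene lists were read with the same measures, as counts beside those of the 10 genes. Of 22 other mesenchymal genes, 7 were lower and 0 higher in ESC in the limma test, where 5.63% of all genes were lower, with a median log2 difference of -0.90. The 7 were the collagen genes Col1a2, Col3a1 and Col5a1, the matrix gene Postn, the actin-binding protein gene Tagln, and Tgfb3 and Smad3 of the TGF-beta pathway. Col5a1 had 21 and 15 peaks in MEF and 1 and 1 in ESC (log2 difference -3.38, SE 0.267, limma adjusted p = 0.00854), and Smad3 had 16 and 17 against 7 and 4 (-1.75, SE 0.260, limma adjusted p = 0.0177). In this list 50 of 96 distal MEF elements (52.1%) were gone from DAY3 on and 72 (75.0%) had no ESC peak, beside 49.2% and 65.4% in the genome.

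Of 20 epithelial genes, 3 were higher and 0 lower in ESC, where 8.87% of all genes were higher, with a median of 0.23. They were Cdh1, Dsp, a desmosome gene, and the epithelial factor gene Elf3. Cdh1, a classical target of the Snail and Zeb repressors, had 6 and 6 peaks in MEF and 19 and 18 in ESC (1.15, SE 0.159, limma adjusted p = 0.0160). Of the distal MEF elements of this list 16 of 50 (32.0%) were gone from DAY3 on, beside 49.2% in the genome. A gene-end peak in both libraries was present at 3 of these 20 genes in MEF and 7 at DAY3, then at 17 (DAY6), 19 (DAY9) and 17 (ESC), while the count for the 10 mesenchymal factor and cadherin genes was 8 or 9 at every stage. The genes behind that count differed: Zeb1 and Prrx2 were missing in MEF, and Twist2 and Prrx2 at DAY6, DAY9 and in ESC. No share over all genes stands beside these gene-end counts, and the peak lists differed in length between stages, so the counts are a description. Most distal MEF elements of the 10 genes were last seen in MEF, but they are another kind of region and not a like comparison. Of 16 other classical cadherin genes, 4 were higher (Cdh1, Cdh7, Cdh19, Cdh20) and 0 lower in ESC, with a median of 0.22, and 24 of their 51 distal MEF elements (47.1%) were gone from DAY3 on, close to the 49.2% of the genome. Cdh7 had 0 and 0 peaks in MEF and 3 and 2 in ESC, Cdh19 0 and 0 against 3 and 6, and Cdh20 4 and 2 against 11 and 14. The cadherin genes that passed the test thus did so in opposite directions, Cdh11 lower and these 4 higher.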

How the data were processed

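The data are 10 peak lists, 1 for each ATAC-seq library, deposited by the authors as 10-column tables with the layout of narrowPeak files. Bowtie2 2.3.2, deepTools 2.3.6 and MACS2 2.1.1, with build mm10, are named per the submitters' processing notes; calling settings, duplicate handling and the transposase offset are not given in the sources used here. Per peak, the authors deposited a score, a fold (a linear ratio over local background at the summit), a −log10 p-value and a −log10 q-value; each library has its own list. The members and lists were chosen with earlier results of these data known.

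The 10 lists were merged where peaks overlapped or touched, and an overlap of 1 bp or more assigned a peak's library to a merged region. Gene coordinates came from a RefSeq table (GRCm38.p6); exons and introns were not analysed here. The −log10 p-value served to rank peaks and elements. Summit pileups were recovered from fold and −log10 p-value and used for the noise ratio, the mean squared difference of 2 libraries relative to counting noise. Window counts were fitted with limma 3.58.1 in R 4.3.3 (eBayes with trend) on log2(scaled count + 1) over 8 samples, which left 3 residual degrees of freedom; genes without a peak in any list were left out. The scripts were tested on simulated data. Named were all 10 genes; for each gene the strongest distal MEF element by the lower MEF −log10 p-value, the elements that persisted or vanished after DAY3, and the strongest element gained in ESC; other elements printed were chosen after their values were seen. Alternatives were equal list lengths, the top 50% of peaks, a 50% overlap, gene ends of 2.5 kb, windows of 25 kb, pseudocounts of 0.25 and 4, unscaled counts, a mean of at least 3 peaks, 10 separate libraries, a replicate block and each library left out. The setting that counts regions over a RefSeq start as gene ends was chosen after seeing the data.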

Additional observations from a re-analysis of the deposited data

How the results depend on the processing

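Peak lists carry no read counts, so the part of depth in a missing peak was not tested. With equal list lengths the distal MEF elements fell from 49 to 31 and those gained in ESC from 22 to 11. With the top 50% of each list these counts were 20 and 9. Both settings shorten the MEF lists, so the count of MEF elements could only fall. The shares moved less: without a DAY3 peak 64.5% to 81.4%, and without an ESC peak 81.6% to 88.4%, over all alternatives other than leaving out a library. Counting regions over a RefSeq start as gene ends, chosen after seeing the data, gave 46 MEF elements, with 78.3% lacking a DAY3 peak and 87.0% an ESC peak, and 7 of 10 own gene ends kept. That setting could not use starts of Snai2, Zeb1, Cdh2 and Cdh11, for which none were at hand. Leaving out 1 library at a time gave 49 to 79 MEF elements, 73.5% to 81.6% without a DAY3 peak, 81.2% to 87.3% without an ESC peak, 22 to 39 gained elements and 6 to 8 own gene ends kept.

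Of the 10 genes, 2 were called in ESC against MEF by limma. The count was 4 with a mean of at least 3 peaks (2883 of all genes), 5 with 10 separate libraries (5429), 1 with equal lists (3211), 1 with the top 50% of peaks (Prrx2, 3386), and 0 to 2 without 1 library. The 1 gene called with equal lists was Prrx1 (-1.11, limma adjusted p = 0.0159), a gene other than the 2 called with the lists as deposited. All-gene calls were 3096, but 0 without MEF 2, 406 without MEF 1, 1315 and 1313 without DAY6 1 or 2, and 1704 and 1290 without ESC 1 or 2. In DAY9 against MEF the count was 0 with 0 genes called in all, 6 with 10 separate libraries (3568), 1 with equal lists (Prrx1, 1088) and 1 with 25 kb windows (Twist2, 172). The 6 were all lower, where 5.84% of all genes were lower in that setting. All-gene calls at DAY9 were also 347 with a pseudocount of 0.25, 462 unscaled, 575 with a mean of at least 3 peaks, 512 with the top 50%, and 654 and 652 without ESC 1 or 2. In DAY3 against MEF 0 of the 10 genes were called under every setting run, with all-gene calls of 0, 117 unscaled, 312 with a mean of at least 3 peaks, 3495 with 10 separate libraries, 545 with equal lists, 211 with the top 50%, and 165 and 155 without ESC 1 or 2. Prrx2 (-0.84 with equal lists, -1.51 with 25 kb windows) and Cdh11 (-0.71 with equal lists, -0.68 with the top 50%) also lost their calls there. The cause of these shifts was not tested.

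Replicate numbers did not pair the libraries: the correlation of their deviations ran from -0.0892 to 0.0248 over 10 pairs of stages. With the replicate number as a block, 5 of the 10 genes were called in ESC against MEF (4869 of all genes), 4 in DAY9 against MEF (3178) and 0 in DAY3 against MEF (2941).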
